A study of Oryza sativa with 12 samples.

Results

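The comparison of root with leaf in wild-type rice (Oryza sativa) rested on 6 of the 12 libraries of the series, chosen by their labels: 3 from leaf and 3 from root of plants labelled WT, whose titles begin with ZH11. All of these plants were 1 month old and were grown in Kimura nutrient solution at 28 °C with 12 h of light and 12 h of dark. The other 6 libraries came from leaf and root of an f3h line grown in the same way, and they enter only where the organ difference of that line is set beside that of the wild type. Whether the libraries of an organ came from separate plants is not stated in the labels, and neither is the hour of harvest or the part of the leaf or root taken. The p-values therefore set the organ difference only against the spread among libraries of the same organ, and that spread may be technical.

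Leaf and root of a grass seedling divide the work of the plant. The leaf blade captures light, fixes carbon dioxide and exports sucrose, whereas the root takes up water, silicon, nitrogen, phosphate and metals and passes them into the xylem, across cell layers that are sealed by Casparian strips. Roots of rice often stand in water with little oxygen and carry genes for fermentation and for haemoglobins that act in low oxygen, while the regulators of chloroplast development are typical of green cells.

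The leaf libraries held 31171931 to 35021116 counts and the root libraries 27317632 to 29687320. Across genes, which are not independent replicates, log2 levels of libraries from the same organ correlated at r between 0.973 and 0.985 and those from different organs at 0.484 to 0.491. WT leaf replicate 1 stood somewhat apart, with a chi-square per degree of freedom of 57.5 and 61.1 against the other leaf libraries, where the other same-organ pairs gave 5.47 to 6.9. Levels are given as normalised CPM, in which counts are scaled to the library total times a TMM factor that allows for a few very abundant genes. The TMM factors were 0.8104 to 0.8282 in leaf and 1.206 to 1.223 in root, and scaling by library totals alone would move the median fold change by 0.57 on the log2 scale towards root. Since gene lengths were not used, levels are compared between organs for 1 gene and not between genes.

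The organ labels were checked with marker genes. The 9 leaf mesophyll markers summed to 47100 to 54400 CPM in the leaf libraries and to 5.81 to 7.8 CPM in the root libraries. The 11 root markers summed to 13.6 to 21.0 CPM in leaf and to 3500 to 3700 CPM in root, and the silicon exporter gene LSI2 and the endodermal gene CASP1 were at 0 in all 3 leaf libraries. Most of the root sum came from the silicon channel gene LSI1 and from LSI2, at means of 1660 and 1180 CPM. A further root marker, whose name was not checked, was at 0.00994 CPM in root and was not tested. Of the 2 guard cell markers, one was higher in leaf and was at 0 in root, and the other stood at 4.98 CPM in leaf and 4.33 CPM in root and was not called.

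More of the tested genes were called different between root and leaf than were not, under the rule used here. A gene was called where the edgeR quasi-likelihood test gave an adjusted p below 0.05 and the absolute log2 fold change, root minus leaf, was at least 1. Of 25229 genes tested, 13325 were called (52.8%). Root was higher at 7548 (29.9%) and leaf at 5777 (22.9%), so that 56.6% of the calls were higher in root. An adjusted p below 0.05 with no fold limit was reached by 72.6% of tested genes. When the fold limit was itself tested, with glmTreat, 6457 genes were called higher in root and 4763 in leaf, fewer together than were not called. With scaling by library totals alone the calls numbered 10214 and 4232, and 70.7% of them were higher in root. Without WT leaf replicate 1 they numbered 7819 and 5860, and 95.9% of the calls that could be tested again were called in the same direction.

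Large differences were frequent. At 3071 genes root was at least 16-fold higher, and at 1859 genes leaf was. Differences of at least 1024-fold by the fitted value were found at 555 genes in root and 339 in leaf. Counts were seen in root and in no leaf library for 3363 genes, of which 942 reached a mean of 1 CPM and 260 a mean of 10 CPM. The reverse held for 1492 genes, of which 303 reached 1 CPM and 102 reached 10 CPM. Leaf RNA was concentrated in fewer genes: the 10 most abundant took 8.51% to 9.54% of the counts in each leaf library and 4.8% to 4.93% in each root library. Genes called higher in leaf took 59.7% of all leaf counts and 8.55% of root counts, and genes called higher in root took 38.5% of root counts and 4.25% of leaf counts. In whole organs a gene may be higher because more cells of a type are present or because each cell holds more of its RNA, and these cannot be told apart.

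**Figure D1:**
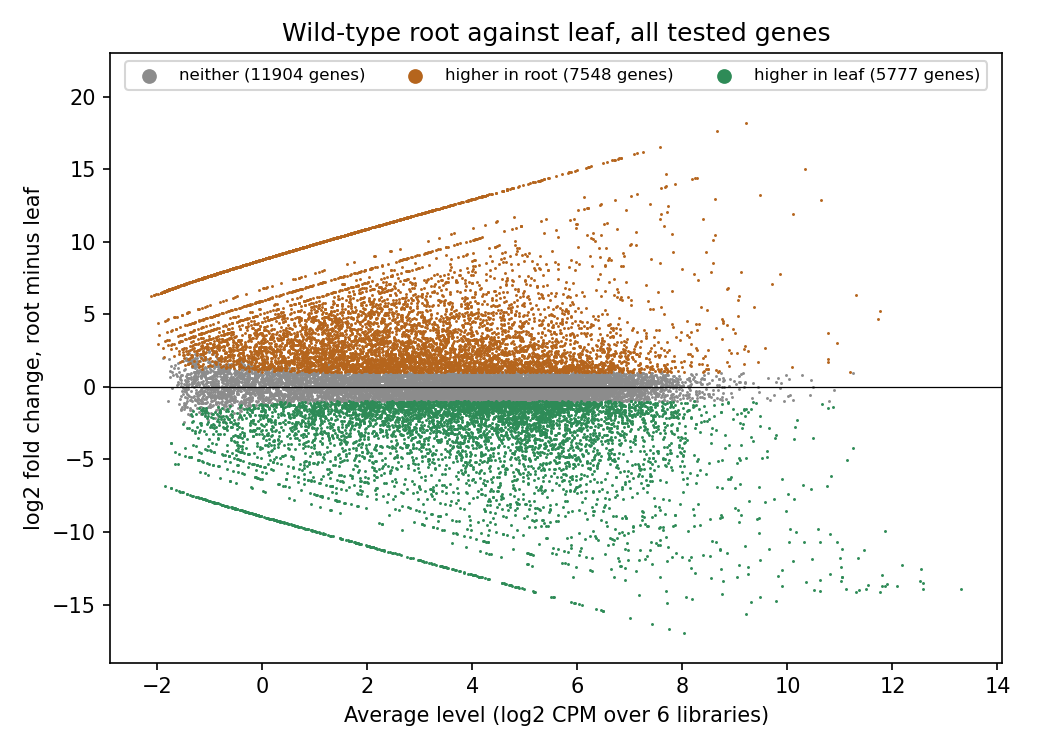
Each point is 1 of the 25229 tested genes, with its average level over the 6 libraries in log2 CPM on the horizontal axis and its log2 fold change, root minus leaf, on the vertical axis; colours mark the 7548 genes higher in root, the 5777 higher in leaf and the 11904 called in neither direction. The outermost straight bands are genes with 0 counts in one organ, whose fitted fold change depends on the prior count and grows with the level in the other organ.

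To describe the functions involved, 372 genes in 30 lists were followed. Of these, 334 passed the filter on low counts and 275 were called (82.3%), 127 higher in root and 148 higher in leaf, while 59 were not called. The lists hold organ-typical genes by construction, so this share is not compared with the 52.8% of all genes. Among all tested genes 29.9% were higher in root and 22.9% in leaf, and list counts near these shares are not particular to a list. The median log2 fold change over all tested genes was 0.11.

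**Figure D2:**
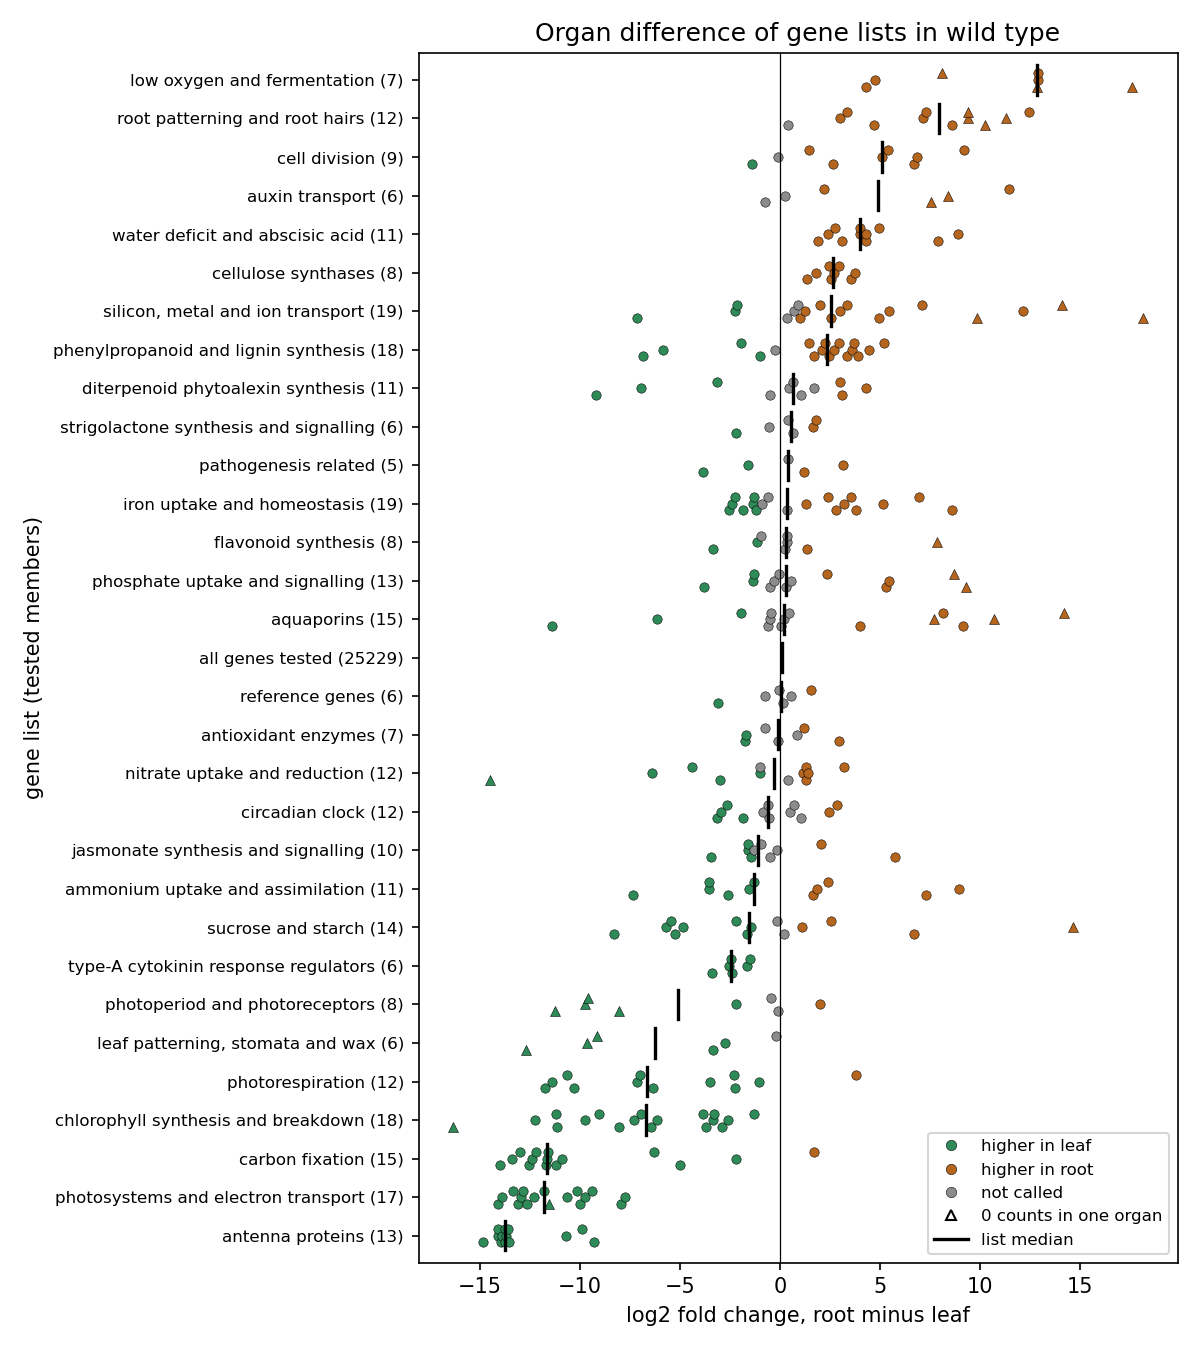
Each point is the log2 fold change, root minus leaf, of 1 of the 334 tested list members, with lists in rows, their number of tested members in brackets and black bars at the list medians; colours mark calls and triangles mark genes with 0 counts in one organ, whose fitted value depends on the prior count. Antenna, photosystem and carbon fixation genes lie farthest to the leaf side, with medians of -13.74, -11.81 and -11.65, and low-oxygen and root patterning genes farthest to the root side, with 12.86 and 7.95.

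Photosynthesis genes separated the organs most completely towards leaf. All 13 antenna genes, which encode the chlorophyll-binding proteins that gather light, and all 17 genes of the photosystems and electron transport were higher in leaf. CAB2R (Os01g0600900), an antenna protein of photosystem II, stood at 17600, 21100 and 22200 CPM in the leaf libraries and at 1.07, 1.37 and 1.43 CPM in the root libraries. CAB1R (Os09g0346500) stood at 7160, 14100 and 15300 CPM in leaf and at 0.775, 0.516 and 0.993 CPM in root. Every leaf library was above every root library for both genes, although WT leaf replicate 1 held less CAB1R than the other leaf libraries. Leaf and root libraries did not overlap at 77.7% of all tested genes. The log2 fold changes were -13.93 ± 0.23 (SE; adjusted p = 1.09e-09) for CAB2R, -13.95 ± 0.46 for CAB1R and -13.54 ± 0.25 for RCABP89 (Os03g0592500), another antenna gene. Antenna genes are similar in sequence and may share reads. Together the 13 genes summed to 85800 to 107000 CPM in leaf and to 14.1 to 15.9 CPM in root.

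Genes of electron transport behaved alike. PETE (Os06g0101600), which encodes plastocyanin, the copper protein that carries electrons to photosystem I, stood at 5580, 5600 and 6080 CPM in leaf and at 0.298, 0.486 and 0.331 CPM in root, a log2 fold change of -13.91 ± 0.20. The ferredoxin gene ADI1 (Os08g0104600) followed at -12.64 ± 0.22 and the photosystem I subunit gene PSAH (Os05g0560000) at -10.68 ± 0.20. LFNR1 (Os06g0107700), a leaf ferredoxin-NADP reductase, had 776 counts in leaf and 1 in root, a ratio of 970 with an exact 95% binomial interval of 174 to 38400 that covers counting error only. The smallest named difference was that of PETC (Os07g0556200), the Rieske iron-sulphur protein of the cytochrome complex, at -7.97 ± 0.17, with 6.04 CPM left in root.

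In carbon fixation, 14 of 15 members were higher in leaf and 1, which is not named here, was higher in root. RCA (Os11g0707000), the activase that keeps Rubisco working, stood at 13600, 11200 and 11200 CPM in leaf and at 2.62, 1.73 and 1.6 CPM in root (log2 fold change -12.56 ± 0.26). The Rubisco small subunit gene RBCS-C (Os12g0274700) was at 201, 429 and 475 CPM in leaf and below 1 CPM in each root library. Fructose-1,6-bisphosphatase (FBPase, Os03g0267300) and the chloroplast aldolase gene ALDP (Os11g0171300), which act in the Calvin cycle and in the making of sugars from it, differed by -11.59 ± 0.21 and -11.23 ± 0.38.

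Photorespiration, which recovers carbon from the oxygenase reaction of Rubisco, showed 11 of 12 members higher in leaf and 1 higher in root. The glycolate oxidases, peroxisomal enzymes of this pathway, divided between the organs. GLO1 (Os03g0786100) stood at 401, 549 and 584 CPM in leaf and at 0.179, 0.0607 and 0.193 CPM in root (log2 fold change -11.74 ± 0.29), and GLO5 (Os07g0152900) was at -7.16 ± 0.28. GLO3 (Os04g0623500) was the exception, at 4.03, 4.69 and 3.28 CPM in leaf and 58.3, 55.2 and 50.6 CPM in root, a log2 fold change of 3.77 ± 0.16 (adjusted p = 5.25e-08). GLO4 (Os07g0616500) was abundant in both organs, at 139 CPM in leaf and 67.0 CPM in root. Its log2 fold change of -1.06 ± 0.11 lay at the fold limit, moved to -1 without WT leaf replicate 3 and to -0.49 with library totals alone, and was called in neither case. GDCSH (Os10g0516100), the H protein of glycine decarboxylase, was higher in leaf at -10.33 ± 0.27.

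Chlorophyll genes were higher in leaf in all 18 cases, those of synthesis and those of breakdown. GLK1 (Os06g0348800), a transcription factor that drives chloroplast development, stood at 354, 323 and 345 CPM in leaf and had no count in root, which makes it at least 11600-fold higher in leaf with a floor of 3 counts over the root group. Its relative GLK2 (Os01g0239000) stood at 318, 334 and 352 CPM in leaf and at 0.179, 0 and 0.221 CPM in root. PORB (Os10g0496900) and PORA (Os04g0678700), the light-dependent protochlorophyllide reductases, differed by -12.27 ± 0.19 and -11.18 ± 0.36. CHLH (Os03g0323200), the large subunit of magnesium chelatase, differed by -9.07 ± 0.14, its partner CHLI (Os03g0563300) by -7.29 ± 0.20, and CAO (Os10g0567400), which makes chlorophyll b, by -6.94 ± 0.16. The chlorophyll breakdown genes NYC1 (Os01g0227100) and SGR (Os09g0532000) differed less, by -2.62 ± 0.14 and -1.33 ± 0.28, and with library totals alone SGR fell below the fold limit at -0.76.

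Of the 14 genes for leaf patterning, stomata and wax only 6 passed the count filter, and 5 of these were higher in leaf with 1 not called. The median was -6.26, or -4.84 with genes with no count in root set at their bound. The YABBY gene YAB6 (Os12g0621100) stood at 40.6, 22.5 and 18.6 CPM in leaf and 0 in root, at least 921-fold higher in leaf, and YAB1 (Os07g0160100) was at least 115-fold higher. NAL1 (Os04g0615000), which shapes leaf width, was expressed in both organs and was higher in leaf, with a log2 fold change of -2.75 ± 0.12.

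Sugar and starch genes split by step. Among 14 tested members 8 were higher in leaf, 4 in root and 2 were not called. SWEET13 (Os12g0476200), which exports sucrose from leaf cells, stood at 560, 346 and 309 CPM in leaf and at 8.64, 9.62 and 9.1 CPM in root (log2 fold change -5.47 ± 0.25). The starch synthesis genes AGPS2 (Os08g0345800) and SSI (Os06g0160700) were higher in leaf at -5.69 ± 0.19 and -5.24 ± 0.19, as were the sucrose transporters SUT2 (Os12g0641400, -1.64 ± 0.11) and SUT1 (Os03g0170900, -1.48 ± 0.19), although SUT1 was at -0.91 and not called with library totals alone.

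Enzymes that split sucrose were the root-higher members. SUS1 (Os03g0401300), a sucrose synthase, stood at 1.28, 2.17 and 2.63 CPM in leaf and at 198, 226 and 219 CPM in root, a log2 fold change of 6.72 ± 0.22 (adjusted p = 1.4e-08). SUS2 (Os06g0194900) was higher by 2.52 ± 0.23 and SUS4 (Os03g0340500) by 1.08 ± 0.25, the latter losing its call without WT leaf replicate 1 (0.94) or WT root replicate 1 (0.99). CIN2 (Os04g0413500), a cell wall invertase, had no count in leaf and stood at 100, 108 and 103 CPM in root, at least 2840-fold higher. SUT4 (Os02g0827200) and the sucrose efflux gene SWEET14 (Os11g0508600) were not called, with overlapping organs and log2 fold changes of 0.21 ± 0.14 and -0.14 ± 0.19, and the sign of SWEET14 turned to 0.10 without WT leaf replicate 1.

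Uptake of nitrogen did not follow a single organ. Of 12 tested nitrate genes 5 were higher in root, 5 in leaf and 2 were not called, and the root count dropped to 3 without WT root replicate 3. NAR2.1 (Os02g0595900), the partner protein of high-affinity nitrate transporters, stood at 0, 0.862 and 0.73 CPM in leaf and at 3.99, 6.62 and 4 CPM in root (log2 fold change 3.17 ± 0.71, adjusted p = 0.00306). The transporter NRT2.3 (Os01g0704100) was higher in root at 1.28 ± 0.33, and at 0.96 without WT leaf replicate 1, where the call was lost. Nitrate reductase NIA1 (Os08g0468100) stood at 95.2, 106 and 101 CPM in leaf and at 4.68, 5.13 and 4.61 CPM in root, a log2 fold change of -4.39 ± 0.11. The named transport genes of this list, NAR2.1 and NRT2.3, were low, at under 10 CPM in every library. Not all members were low: Os01g0547600, which has no checked name, stood at 82.5, 102 and 97.9 CPM in leaf and 0 in root.

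Of 11 tested genes for ammonium 5 were higher in root and 6 in leaf. The glutamine synthetases, which bind ammonium to glutamate, formed a series across the organs. GLN2 (Os04g0659100), the plastid enzyme that also recovers photorespiratory ammonium, stood at 2280, 1900 and 1950 CPM in leaf and at 13.5, 13.1 and 10.3 CPM in root (log2 fold change -7.38 ± 0.17). Of the cytosolic enzymes, GLN1;1 (Os02g0735200) was higher in leaf at -1.56 ± 0.10 and GLN1;2 (Os03g0223400) in root at 2.38 ± 0.13. GLN1;3 (Os03g0712800) had 2 counts in leaf and 1440 in root, a ratio of 576 with an exact 95% binomial interval of 159 to 4760. FD-GOGAT (Os07g0658400), the ferredoxin-dependent glutamate synthase, was higher in leaf at -3.57 ± 0.11.

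The ammonium transporters were also divided. AMT1;1 (Os04g0509600) stood at 125, 148 and 152 CPM in leaf and at 11.1, 13.3 and 11.4 CPM in root, so that every leaf library was above every root library (log2 fold change -3.57 ± 0.13). AMT2;1 (Os05g0468700) was higher in leaf at -2.62 ± 0.26. AMT1;3 (Os02g0620600) was higher in root at 1.64 ± 0.31, from a mean of 0.838 CPM in leaf to 2.61 CPM.

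**Figure D3:**
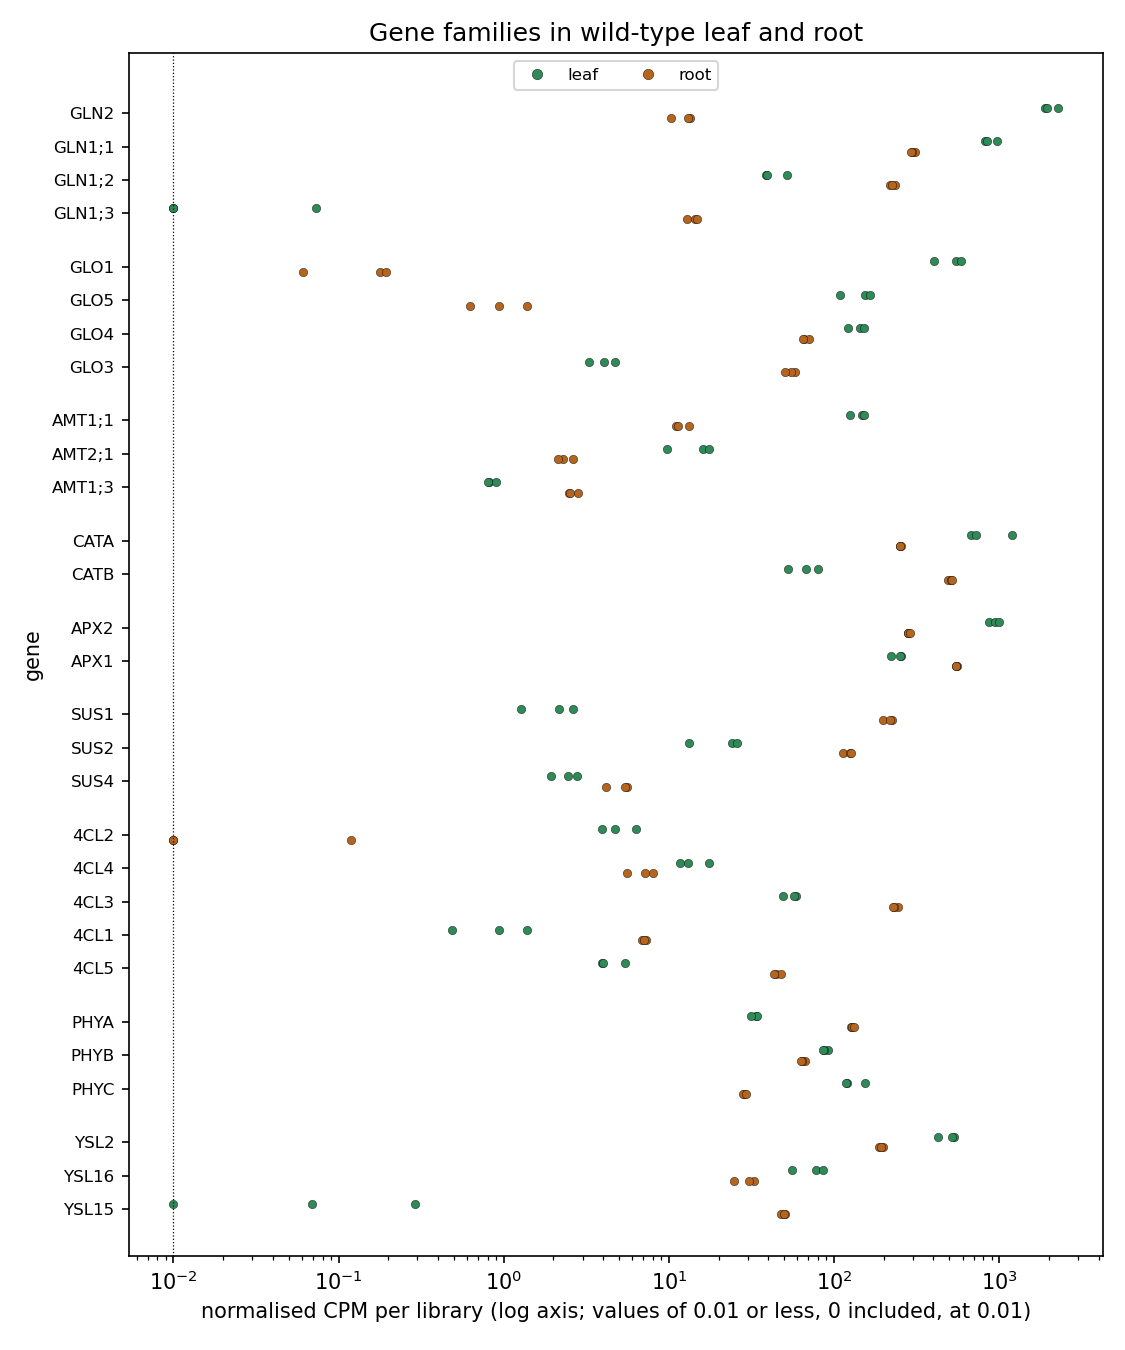
Points are normalised CPM of the 6 wild-type libraries on a log axis, green for leaf and brown for root, for members of 9 gene families grouped by gaps; values of 0.01 CPM or less, 0 included, are drawn at the dotted line. Glutamine synthetases run from GLN2, at 1900 to 2280 CPM in leaf and 10.3 to 13.5 CPM in root, to GLN1;3, at 14 CPM on average in root and 0.0243 CPM in leaf, and glycolate oxidases, catalases, ascorbate peroxidases, coumarate CoA ligases and phytochromes each have members called in opposite directions.

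Phosphate genes showed 5 members higher in root, 3 higher in leaf and 5 not called. PHO1;2 (Os02g0809800), which loads phosphate into the xylem, stood at 16.6, 11.3 and 15 CPM in leaf and at 646, 597 and 661 CPM in root, a log2 fold change of 5.47 ± 0.17 (adjusted p = 8.63e-09). PT6 (Os08g0564000), a phosphate transporter, had no count in leaf and a mean of 2.54 CPM in root, at least 68.8-fold higher. PT4 (Os04g0186400, -1.36 ± 0.23) and the phosphate sensor SPX2 (Os02g0202200, -1.29 ± 0.29) were higher in leaf, but with library totals alone they were at -0.79 and -0.73 and not called. SPX1 (Os06g0603600) stood at 13.5 CPM in leaf and 13.1 CPM in root with overlapping libraries.

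Rice takes up iron by a ferrous route and by a route that uses secreted mugineic acids. Of 19 tested iron genes 9 were higher in root, 7 in leaf and 3 were not called. YSL15 (Os02g0650300), the uptake transporter of iron bound to mugineic acids, stood at 0, 0.069 and 0.292 CPM in leaf and at 47.5, 50.3 and 49.9 CPM in root (log2 fold change 8.62 ± 0.39). The ferrous transporters IRT2 (Os03g0667300) and IRT1 (Os03g0667500) were higher in root at 3.78 ± 0.26 and 3.53 ± 0.42. The nicotianamine synthases, which make the precursor of mugineic acids and a metal chelator, were higher in root as well, NAS3 (Os07g0689600) by 5.13 ± 0.21, NAS1 (Os03g0307300) by 2.81 ± 0.22 and NAS2 (Os03g0307200) by 2.39 ± 0.18.

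NAAT1 (Os02g0306401), the aminotransferase of the next step, ran the other way. It stood at 101, 140 and 140 CPM in leaf and at 26.8, 24.3 and 28.6 CPM in root, a log2 fold change of -2.26 ± 0.15 (adjusted p = 1.05e-06). YSL2 (Os02g0649900) and YSL16 (Os04g0542800), which move metal chelates within the plant, were higher in leaf at -1.35 ± 0.11 and -1.32 ± 0.18, and with library totals alone they were at -0.78 and -0.76 and not called. The metal transporter gene NRAMP1 (Os07g0258400) and the regulator gene IDEF1 (Os08g0101000) were at -0.89 ± 0.11 and -0.61 ± 0.20 and were not called, but without WT leaf replicate 1 NRAMP1 was at -1.01 and passed.

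Silicon, metal and ion transport leaned to root, with 13 of 19 tested members higher in root, 3 higher in leaf and 3 not called, and a median of 2.53. LSI1 (Os02g0745100), the channel through which silicic acid enters root cells, stood at 11.4, 16.1 and 8.46 CPM in leaf and at 1640, 1710 and 1630 CPM in root (log2 fold change 7.11 ± 0.25). LSI2 (Os03g0107300), the exporter that works with it, had no count in leaf and stood at 1150, 1230 and 1150 CPM in root, at least 32200-fold higher. LSI6 (Os06g0228200), which unloads silicon from the xylem in shoots, was the leaf member of this group, at 147, 211 and 213 CPM in leaf and 42.3, 40.5 and 35.3 CPM in root (-2.27 ± 0.16).

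CASP1 (Os04g0684300), a membrane protein that places the Casparian strip, had no count in leaf and stood at 67.6, 74.4 and 70.2 CPM in root, at least 1940-fold higher. NRAMP5 (Os07g0257200), the uptake transporter of manganese and cadmium, was at 2.99, 2.21 and 3.43 CPM in leaf and at 125 CPM in each root library (5.45 ± 0.16). HMA2 (Os06g0700700), a zinc pump, and STAR1 (Os06g0695800), which takes part in aluminium tolerance, were higher in root at 4.95 ± 0.26 and 2.99 ± 0.12. Of the HKT transporters of sodium, HKT1;5 (Os01g0307500) was higher in root at 2.01 ± 0.17, and HKT1;1 (Os04g0607500) was higher in leaf at -7.14 ± 0.19, from 75.8 CPM in leaf to 0.531 CPM in root. The potassium transporter HAK5 (Os01g0930400) was higher in leaf at -2.14 ± 0.35, with under 5 CPM in each library. HAK1 (Os04g0401700, 0.69 ± 0.15) was not called but passed with library totals alone, at 1.25, and HKT2;1 (Os06g0701700, 0.35 ± 0.48) was not called.

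Of 15 aquaporins, the water channels of the plasma membrane (PIP) and vacuole (TIP), 6 were higher in root, 3 in leaf and 6 were not called. These counts are near the 29.9% and 22.9% of all tested genes that were higher in root and in leaf. PIP2;3 (Os04g0521100) had no count in leaf and stood at 73, 82 and 76.4 CPM in root, at least 2110-fold higher. PIP2;4 (Os07g0448100, 9.13 ± 0.34) and TIP2;1 (Os02g0658100, 8.15 ± 0.21) were below 1 CPM in every leaf library and at 63.5 and 42.8 CPM in root. PIP1;3 (Os02g0823100) was expressed in both organs, at 53.4, 57.6 and 64.8 CPM in leaf and 932, 989 and 909 CPM in root (4.01 ± 0.12).

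In the other direction PIP2;7 (Os09g0541000) stood at 335, 539 and 532 CPM in leaf and at 0.298, 0.0607 and 0.138 CPM in root (log2 fold change -11.43 ± 0.37), and TIP1;2 (Os01g0975900) at 4500, 3010 and 3250 CPM in leaf and 49.5, 51.5 and 48 CPM in root (-6.18 ± 0.19). TIP1;1 (Os03g0146100) was higher in leaf at -1.94 ± 0.11. PIP2;1 (Os07g0448800), at 688 CPM in leaf and 697 CPM in root, and TIP2;2 (Os06g0336200), at 267 and 309 CPM, had overlapping organs and were not called. PIP2;1 lies near PIP2;5 (Os07g0448400) and PIP2;4 in the order of locus identifiers, and PIP2;5 had no count in leaf and 6.75 CPM in root, at least 185-fold higher. Such related genes may share reads.

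**Figure D4:**
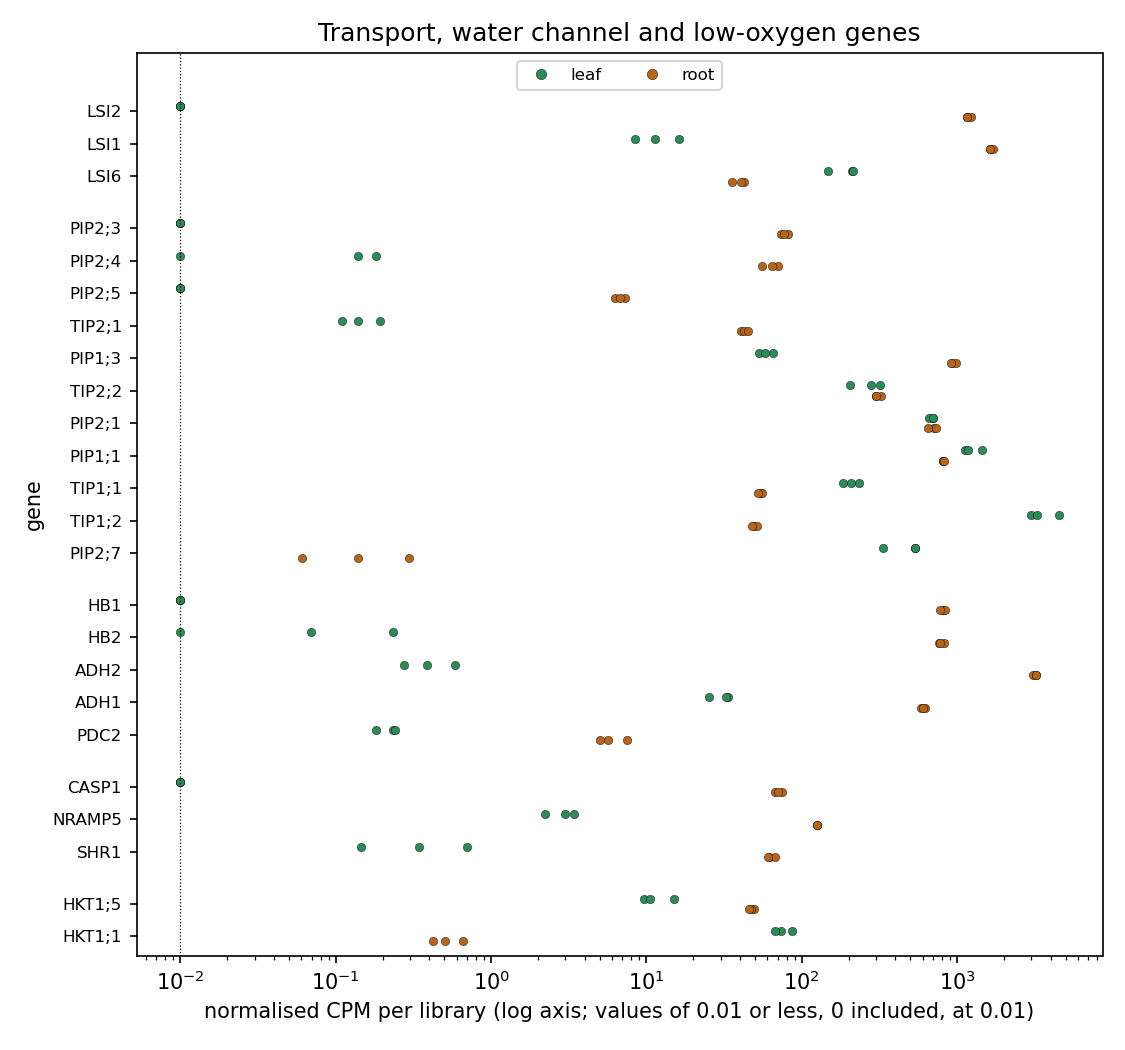
Points are normalised CPM of the 6 wild-type libraries on a log axis, green for leaf and brown for root, for genes of silicon transport, aquaporins, low-oxygen metabolism, root cell types and sodium transport; values of 0.01 CPM or less, 0 included, are drawn at the dotted line. LSI2, PIP2;3, PIP2;5, HB1 and CASP1 lie at 0 in all 3 leaf libraries, PIP2;1 and TIP2;2 overlap, and LSI6, TIP1;1, TIP1;2, PIP2;7 and HKT1;1 lie higher in leaf.

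Genes for root patterning and root hairs were higher in root in 11 of 12 tested cases, with 1 not called. The median was 7.95, or 6.64 with genes with no count in leaf set at their bound. SHR1 (Os07g0586900), a regulator of the endodermis, stood at 0.698, 0.345 and 0.146 CPM in leaf and at 61.2, 67 and 60.4 CPM in root (7.32 ± 0.30), and SHR2 (Os03g0433200) was at 4.72 ± 0.25. WOX11 (Os07g0684900), which promotes crown roots, was higher by 7.16 ± 0.44, RAA1 (Os01g0257300), which affects root architecture, by 8.58 ± 0.44, and CSLD1 (Os10g0578200), needed for root hairs, by 3.01 ± 0.30. The expansin gene EXPA8 (Os01g0248900) and the quiescent centre gene QHB (Os01g0854500) had no count in leaf and were at least 279-fold and at least 74.9-fold higher in root. SCR1 (Os11g0124300), another regulator of the endodermis, was expressed in both organs at 12.9 CPM in leaf and 17 CPM in root and was not called (0.40 ± 0.15).

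Of 6 tested auxin transport genes 4 were higher in root and 2 were not called. PIN9 (Os01g0802700), an auxin efflux carrier, had 2 counts in leaf and stood at 75.5, 81.5 and 77.8 CPM in root, a ratio of 3220 with an exact 95% binomial interval of 890 to 26600. PIN5B (Os08g0529000) was higher in root at 2.21 ± 0.36, and PIN5A (Os01g0919800) was not called at -0.78 ± 0.25. Without WT leaf replicate 1, PIN5A was called at -1.05 and 2 genes of the list were higher in leaf.

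All 6 type-A response regulators, which are induced by cytokinin and dampen its signal, were higher in leaf, with a median of -2.44. RR2 (Os02g0557800) stood at 575, 503 and 493 CPM in leaf and at 90.1, 85.4 and 88.3 CPM in root (-2.57 ± 0.10), and RR1 (Os04g0442300) was at -3.43 ± 0.21. RR9 (Os11g0143300) and RR10 (Os12g0139400), at -2.47 ± 0.21 and -2.41 ± 0.20, are near-identical copies whose reads the counting may have split. RR4 (Os01g0952500) differed by -1.68 ± 0.10 and RR6 (Os04g0673300) by -1.52 ± 0.23, and RR6 was at -0.95 and not called with library totals alone. Of 6 tested strigolactone genes 2 were higher in root, 1 in leaf and 3 were not called. The biosynthesis gene D17 (Os04g0550600) was higher in root at 1.63 ± 0.16 and D10 (Os01g0746400) in leaf at -2.20 ± 0.55, with about 1 CPM there. The receptor gene D14 (Os03g0203200) and the F-box gene D3 (Os06g0154200) were not called at 0.40 ± 0.19 and 0.66 ± 0.09, but D3 passed with library totals alone, at 1.23.

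All 8 cellulose synthase genes, which make the main fibre of the cell wall, were higher in root, with a median of 2.62. CESA5 (Os03g0837100) stood at 10.2, 9.62 and 10.4 CPM in leaf and at 123, 112 and 116 CPM in root (3.54 ± 0.10). Of the genes for primary walls, CESA6 (Os07g0252400) differed by 2.93 ± 0.09, CESA8 (Os07g0208500) by 2.55 ± 0.14, CESA1 (Os05g0176100) by 1.77 ± 0.13 and CESA3 (Os07g0424400) by 1.32 ± 0.14. Those known from secondary walls, CESA4 (Os01g0750300, 2.70 ± 0.16), CESA7 (Os10g0467800, 3.73 ± 0.57) and CESA9 (Os09g0422500, 2.45 ± 0.44), were higher in root too.

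In phenylpropanoid and lignin synthesis 13 of 18 tested members were higher in root, 4 in leaf and 1 was not called. CAD2 (Os02g0187800), which makes lignin alcohols, stood at 22.1, 23.5 and 24.6 CPM in leaf and at 332, 384 and 336 CPM in root (3.91 ± 0.11), and the methyltransferase COMT1 (Os08g0157500) was higher by 2.45 ± 0.10. The coumarate CoA ligases divided: 4CL5 (Os08g0448000, 3.34 ± 0.16), 4CL1 (Os08g0245200, 2.92 ± 0.35) and 4CL3 (Os02g0177600, 2.1 ± 0.10) were higher in root, and 4CL2 (Os02g0697400, -6.86 ± 0.71) in leaf. 4CL4 (Os06g0656500) was called higher in leaf at -1.02 ± 0.21, and lost the call without WT leaf replicate 1 (-0.85), without WT root replicate 2 (-0.91) and with library totals alone (-0.46).

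Of 8 tested flavonoid genes 2 were higher in root, 2 in leaf and 4 were not called, close to the 29.9% and 22.9% of all tested genes. Chalcone synthase CHS1 (Os11g0530600), the first step, stood at 7.76, 5.48 and 6.57 CPM in leaf and at 0.537, 1 and 0.386 CPM in root (-3.36 ± 0.37). Chalcone isomerase CHI (Os03g0819600) was at -0.94 ± 0.22 and not called, but passed without WT leaf replicate 1 at -1.21 and without WT root replicate 2 at -1.04. Among 11 tested genes of diterpenoid phytoalexins, antimicrobial compounds of rice, 3 were higher in root, 3 in leaf and 5 were not called. CPS2 (Os02g0571100) stood at 30.6, 39.6 and 40.3 CPM in leaf and at 0.119, 0 and 0.0552 CPM in root (-9.21 ± 0.37), and KSL5 (Os02g0571300) and KSL10 (Os12g0491800) were higher in leaf at -6.94 ± 0.55 and -3.14 ± 0.64. MAS (Os04g0179200) of the momilactone pathway (3.11 ± 0.52) and CYP76M8 (Os02g0569400, 2.97 ± 0.47) were higher in root at about 5 CPM. CPS4 (Os04g0178300, 0.43 ± 0.18) and CYP99A3 (Os04g0178400, -0.53 ± 0.31) were not called, and the sign of CYP99A3 turned to 0.04 with library totals alone.

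Genes for low oxygen and fermentation had the largest median towards root of the 30 lists, 12.86, or 9.69 with genes with no count in leaf set at their bound, and all 7 tested members were called in that direction. HB1 (Os03g0233900), a haemoglobin that acts in nitric oxide turnover under low oxygen, had no count in leaf and stood at 809, 831 and 774 CPM in root, at least 22000-fold higher. Its relative HB2 (Os03g0226200) stood at 0.233, 0.069 and 0 CPM in leaf and at 767, 824 and 777 CPM in root (12.92 ± 0.34). ADH2 (Os11g0210500), an alcohol dehydrogenase of ethanol fermentation, was at 0.388, 0.276 and 0.584 CPM in leaf and at 3060, 3220 and 3230 CPM in root (12.89 ± 0.22, adjusted p = 1.3e-09). ADH1 (Os11g0210300) was expressed in both organs, at 30.4 CPM in leaf and 603 CPM in root (4.31 ± 0.14). The pyruvate decarboxylases of the step before were low: PDC2 (Os03g0293500) reached 6.05 CPM in root (4.76 ± 0.34) and PDC1 (Os05g0469600) 1.11 CPM, with no count in leaf.

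Genes on the list for water deficit and abscisic acid were higher in root in all 11 tested cases, with a median of 4. Only 3 of these 11 calls were repeated in f3h. SALT (Os01g0348900), a lectin induced by salt, stood at 3.84, 3.14 and 2.52 CPM in leaf and at 754, 729 and 756 CPM in root (7.88 ± 0.17). The dehydrin genes RAB21 (Os11g0454300), RAB16B (Os11g0454200), RAB16C (Os11g0454000) and RAB16D (Os11g0453900) form a group of similar genes that may share reads. RAB21 differed by 4.97 ± 0.19, RAB16B by 2.76 ± 0.42 and RAB16C by 1.89 ± 0.39, and RAB16D had 3 counts in leaf and 1979 in root, a ratio of 528 with an exact 95% binomial interval of 180 to 2560. The transcription factor genes DREB1B (Os09g0522000), DREB1A (Os09g0522200) and DREB1C (Os06g0127100) were higher by 4.31 ± 0.21, 3.99 ± 0.31 and 4.30 ± 0.66, the proline synthesis gene P5CS1 (Os05g0455500) by 2.39 ± 0.17 and LEA3 (Os05g0542500), which encodes a protective protein, by 3.07 ± 0.23. ABA8OX1 (Os02g0703600), which breaks down abscisic acid, was also higher in root, at 4 ± 0.80.

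Of 10 tested jasmonate genes 4 were higher in leaf, 2 in root and 4 were not called. JAR1 (Os05g0586200), which joins jasmonate to isoleucine, stood at 475, 440 and 468 CPM in leaf and at 40.9, 40.6 and 43 CPM in root (-3.47 ± 0.10), and the synthesis gene AOC (Os03g0438100) was at -1.60 ± 0.17. AOS2 (Os03g0225900), which acts in the step before AOC, was higher in root instead, at 5.75 ± 0.50, from 0.285 to 15.8 CPM. The JAZ repressor genes split, with TIFY11D (Os10g0392400) higher in leaf at -1.63 ± 0.25, TIFY11A (Os03g0180800) higher in root at 2.02 ± 0.24 and TIFY11B (Os03g0181100) not called at -0.18 ± 0.21. The synthesis gene OPR7 (Os08g0459600) was at -0.49 ± 0.09 and not called, and with library totals alone the signs of OPR7 and TIFY11B turned, to 0.08 and 0.39.

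Of 12 clock genes 4 were higher in leaf, 2 in root and 6 were not called. LHY (Os08g0157600), a dawn component, stood at 1430, 1170 and 1100 CPM in leaf and at 190, 187 and 200 CPM in root (-2.68 ± 0.12). The pseudo-response regulators PRR95 (Os09g0532400, -3.14 ± 0.10), PRR37 (Os07g0695100, -2.96 ± 0.13) and PRR73 (Os03g0284100, -1.85 ± 0.12) were also higher in leaf. GI (Os01g0182600), at 1640 CPM in leaf and 1100 CPM in root (-0.57 ± 0.10), and PRR1 (Os02g0618200, 0.70 ± 0.17) were not called, and PRR1 passed with library totals alone at 1.27.

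Of 8 tested photoperiod and photoreceptor genes 5 were higher in leaf, 1 in root and 2 were not called. The florigen gene HD3A (Os06g0157700), whose protein moves from leaf to shoot tip, stood at 7.83, 12.6 and 9.23 CPM in leaf and 0 in root, at least 342-fold higher. The phytochromes, receptors of red light, divided: PHYC (Os03g0752100) was higher in leaf at -2.19 ± 0.12, PHYA (Os03g0719800) in root at 1.97 ± 0.09, and PHYB (Os03g0309200) was not called at -0.46 ± 0.09, its sign turning to 0.11 with library totals alone. DTH8 (Os08g0174500), a regulator of heading date, had overlapping organs.

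Cell division genes were higher in root in 7 of 9 cases, 1 was higher in leaf and 1 was not called, with a median of 5.08. CYCB1;1 (Os01g0805600), a mitotic cyclin, stood at 0.194, 0.276 and 0.146 CPM in leaf and at 20.7, 21.6 and 23.6 CPM in root (6.71 ± 0.24). CYCB2;2 (Os06g0726800) had 2 counts in leaf and 1696 in root, a ratio of 678 with an exact 95% binomial interval of 188 to 5610, CYCB2;1 (Os04g0563700) was higher by 5.42 ± 0.27 and the mitotic kinase CDKB2;1 (Os08g0512600) by 5.08 ± 0.27. The replication genes MCM2 (Os11g0484300) and PCNA (Os02g0805200) differed less, by 2.66 ± 0.25 and 1.46 ± 0.10. CDKB1;1 (Os01g0897000), at 13.8 CPM in leaf and 12.9 CPM in root, was not called. KRP1 (Os02g0762400), an inhibitor of cell cycle kinases, was higher in leaf at -1.43 ± 0.14, and at -0.87 without a call when library totals alone were used.

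Of 7 enzymes that remove reactive oxygen 2 were higher in root, 2 in leaf and 3 were not called, where 29.9% and 22.9% of all tested genes were higher in root and in leaf. Catalase CATB (Os06g0727200) stood at 53, 68.1 and 79.8 CPM in leaf and at 492, 510 and 515 CPM in root (2.92 ± 0.15), while CATA (Os02g0115700) was at 1190, 673 and 723 CPM in leaf and at 252, 254 and 251 CPM in root (-1.77 ± 0.20). Ascorbate peroxidase APX1 (Os03g0285700) was higher in root at 1.18 ± 0.09 and APX2 (Os07g0694700) in leaf at -1.73 ± 0.10. The superoxide dismutases SODCC1 (Os03g0351500, -0.78 ± 0.14), SODCC2 (Os07g0665200, -0.09 ± 0.08) and SODA (Os05g0323900, 0.84 ± 0.09) were not called, but SODA passed with upper quartile scaling at 1.06. Of 5 tested pathogenesis-related genes 2 were higher in root, 2 in leaf and 1 was not called. The defence gene PBZ1 (Os12g0555500) was higher in leaf at -3.88 ± 0.18 and NPR1 (Os01g0194300), a coactivator in salicylate signalling, in root at 1.17 ± 0.16.

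The list of reference genes, which also held a heat shock protein gene, was examined in the same way. Of 6 genes 1 was higher in root, 1 in leaf and 4 were not called. EF-1-alpha (Os03g0177900) stood at 362, 396 and 389 CPM in leaf and at 419, 427 and 432 CPM in root (0.16 ± 0.09), and GAPC (Os08g0126300) was at -0.74 ± 0.20. ACT1 (Os03g0718100), an actin gene, stood at 3.22, 9.86 and 7.08 CPM in leaf and at 21, 19.3 and 19.5 CPM in root, a log2 fold change of 1.56 ± 0.33 (adjusted p = 0.00209). The member higher in leaf was the heat shock protein gene HSP101 (Os05g0519700), at -3.13 ± 0.29.

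The largest differences were not confined to genes with a name. The deposited table does not pair loci with names, and the largest differences of abundant loci without a checked name are given by locus. Os01g0347600 stood at 381, 394 and 360 CPM in root and Os05g0134700 at 309, 313 and 294 CPM, both with no count in leaf and at least 10300-fold and 8360-fold higher in root. Os07g0413800 stood at 518, 508 and 544 CPM in leaf and Os08g0247600 at 611, 355 and 322 CPM, both with no count in root and at least 17900-fold and 14500-fold higher in leaf.

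Genes called in the same organ often had neighbouring loci. In the order of locus identifiers, the tested gene after one called higher in root was itself called higher in root in 38.3% of 7546 cases, and after an uncalled gene in 27.9% of 11897. For leaf the shares were 32.3% of 5768 and 21.4% of 11897. The longest run of consecutive tested genes that were at least 16-fold higher in root held 10 genes on chromosome 8, with a median fitted log2 fold change of 12.29, and the longest for leaf held 5 genes. Neighbouring copies of a gene may share reads, and the share of such copies in the runs was not tested. Shares per chromosome varied little, from 28% to 32.8% of tested genes higher in root and from 21% to 24.3% higher in leaf.

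The organ difference of the f3h line, fitted on 6 other libraries, was set beside that of the wild type. In f3h 52.8% of 24822 tested genes were called, 28.8% higher in root and 24% higher in leaf. Of the 7548 genes higher in wild-type root, 5541 were higher in f3h root (73.4% of the wild-type calls and 77.5% of the f3h calls), and 160 were called in the opposite direction. Of the 5777 genes higher in wild-type leaf, 4493 were higher in f3h leaf (77.8% and 75.5%), and 58 were opposite. Among list members 95 of the 127 root calls and 134 of the 148 leaf calls were repeated. The interaction of organ and genotype passed an adjusted p of 0.05 at 33.4% of the 26328 genes in that fit. Among the 334 tested list members the interaction passed at 202. The members were chosen with earlier results of these data known, so this count is not compared with the 33.4% of all genes.

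Photosynthesis genes kept their direction in f3h, with log2 fold changes of -11.76 to -6.20 over the 30 antenna and photosystem genes. Yet the interaction passed for 12 of the 13 antenna genes and for 15 of the 17 genes of the photosystems and electron transport. In wild-type root the 13 antenna genes summed to 14.1 to 15.9 CPM. The cause of these interactions was not tested. HB2, at 12.92 in the wild type, was at -0.99 in f3h (interaction -13.88, adjusted p = 1.28e-13), and HB1, at 17.60 by the fitted value, was at 6.71. The aquaporin PIP1;3, at 4.01 in the wild type, was at -0.20 in f3h, and COMT1, at 2.45, was at 0.39. In the opposite direction, SWEET14 was not called in the wild type at -0.14 and was higher in root at 4.32 in f3h. For 9 list members, all higher in wild-type root, the f3h call was higher in leaf.

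**Figure D5:**
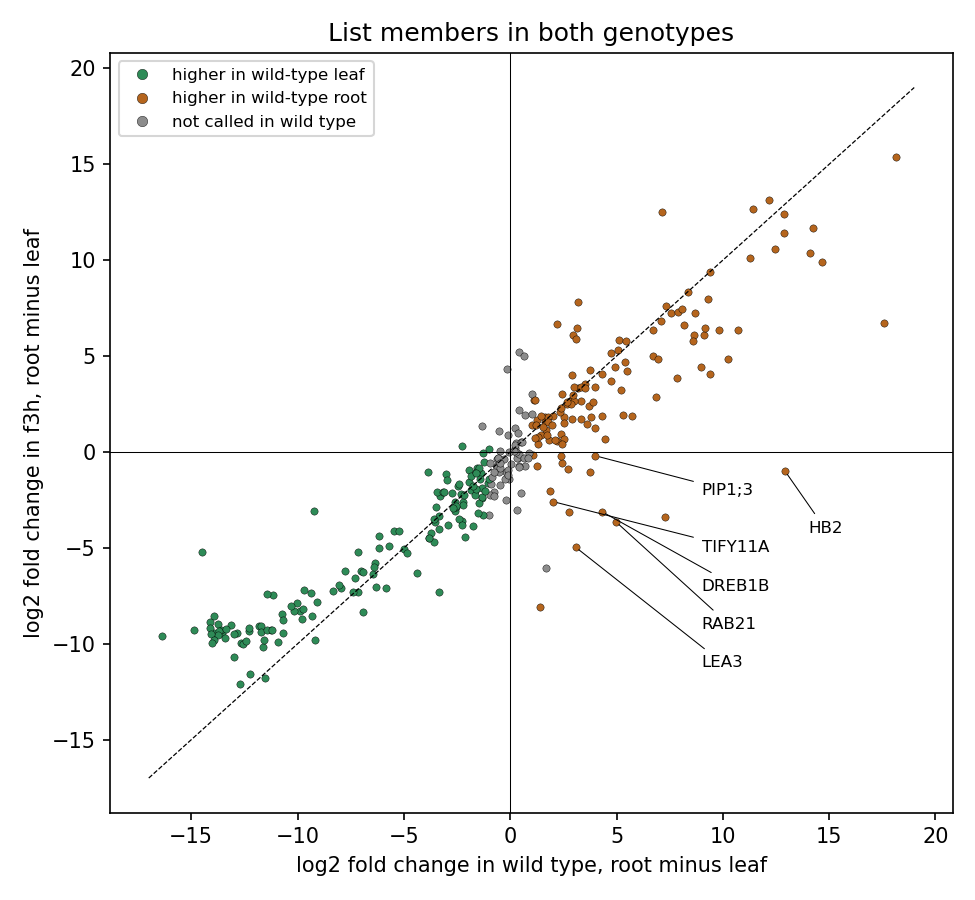
Each point is 1 of the 322 list members tested in both genotypes, with its log2 fold change, root minus leaf, in the wild type on the horizontal axis and in f3h on the vertical axis; colours mark the wild-type call and the dashed line marks equal values. Most points keep their sign, whereas HB2, RAB21, LEA3, DREB1B, TIFY11A and PIP1;3 lie above 0 on the wild-type axis and below 0 on the f3h axis.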

How the data were processed

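The authors deposited raw counts per gene, whole numbers without normalization, for 37960 genes in 12 libraries. The tools named in the submitters' processing notes are fastp, HISAT2, featureCounts and DESeq. These notes give no version or genome build, and the strand setting of the counting is not stated, so antisense or overlapping genes may share reads.

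Counts of the 6 wild-type libraries were filtered with filterByExpr, scaled by TMM and tested with the quasi-likelihood test of edgeR 4.0.16 in R 4.3.3, with Benjamini-Hochberg adjustment over all tested genes; DESeq2 1.42.0 and limma 3.58.1 were alternatives. Calls needed an adjusted p below 0.05 and a log2 fold change of 1 or more in either direction. Errors are standard errors from the F statistic. With 3 libraries per organ an exact permutation test cannot go below p = 0.1 and was not used. A count of 0 over the 3 libraries of an organ was set at a floor of 3 counts for lower bounds. The procedure was tested on simulated data in which few genes differed between the organs, with as many higher in root as in leaf. In the real data 52.8% of tested genes were called, so the simulation cannot show how well the scaling and calls hold here.

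The members and lists were chosen with earlier results of these data known. Of 372 list members 239 had a name that the reference gene table placed on the same chromosome, within 5% of the locus's rank there, and only these are named. Named genes were up to 4 called members per list in its main direction, with average log2 CPM 1 or above, up to 3 in the other, up to 2 not called, the 8 largest differences each way and 2 loci each way without a name; further members were added after their values were seen, as were the families plotted. Deviations of leaf and root libraries with the same number correlated at 0.058, 0.036 and -0.029. Those with different numbers correlated at -0.08 to 0.065. No pairing was seen, but with 3 libraries per organ this cannot show whether same-numbered libraries came from the same plants. Promoter motifs were not analysed here.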

Additional observations from a re-analysis of the deposited data

Results flagged for a closer look

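For 7 named genes the organ difference had opposite directions in the 2 genotypes and the interaction of organ and genotype passed an adjusted p of 0.05 in edgeR's quasi-likelihood test on all 12 libraries. Each was higher in root in the wild type and higher in leaf in f3h. The interaction is the f3h organ difference minus the wild-type one on the log2 scale. For the dehydrin genes, RAB21 went from 4.97 to -3.64 (interaction -8.57), RAB16B from 2.76 to -3.11 (interaction -5.83) and RAB16C from 1.89 to -2.05 (interaction -3.9). LEA3 went from 3.07 to -4.96 (interaction -8) and the transcription factor gene DREB1B from 4.31 to -3.11 (interaction -7.38). The jasmonate repressor gene TIFY11A went from 2.02 to -2.59 (interaction -4.58). The cellulose synthase gene CESA7 went from 3.73 to -1.03 (interaction -4.73), with at most 2.82 CPM in any wild-type library. The 3 dehydrin genes may share reads. Groups of 3 libraries are too small for the check on single outlying libraries, which was not run.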

How the results depend on the processing

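The calls higher in root numbered 6445 to 10214 and those higher in leaf 4232 to 8436 over all alternatives, against 7548 and 5777, and neither count moved by more than 1.5 times. Of the 60 counts per list and direction, at most 7 moved by more than that under any alternative, with library totals alone. Leaving out 1 library gave 7340 to 7819 and 5805 to 5885. Called list members ranged from 259 to 303 over all alternatives, against 275. The shares of wild-type calls repeated in f3h were recomputed only with upper quartile scaling and with no fold limit. There they ranged from 75.6% to 77.9% for root and 78.1% to 81.4% for leaf, against 73.4% and 77.8%. Of 202 named genes 176 kept their direction and side of the threshold with library totals alone, 184 with no fold limit, 192 with upper quartile scaling, 193 with glmTreat, and 202 with relative log expression scaling or DESeq2. A replicate block, which the data gave no ground for, left 7376 and 5622 calls and changed none of the 202; the nitrate list kept 3 of its 5 root calls.

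Among the 202 named genes, signs turned only for some that were not called in the main analysis. With library totals alone SWEET14 was at 0.42, SPX1 at 0.52, CYP99A3 at 0.04, DTH8 at 0.46, PHYB at 0.11, CDKB1;1 at 0.47, TIFY11B at 0.39, OPR7 at 0.08 and SODCC2 at 0.48. With upper quartile scaling SWEET14 was at 0.08, SPX1 at 0.17, DTH8 at 0.11, CDKB1;1 at 0.12, TIFY11B at 0.04 and SODCC2 at 0.13. Both scalings shift all genes towards root, by 0.57 and 0.22 at the median. With 1 library left out SWEET14 ranged from -0.28 to 0.10, SPX1 from -0.13 to 0.02, DTH8 from -0.39 to 0.10 and PIP2;1 from -0.04 to 0.05. The cause was not tested for these.

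Depth limits the genes under about 1 CPM, and zeros in one organ give only a lower bound for the fold at any level in the other organ.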
